A study of Mus musculus with 6 samples.

Results

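The 10 genes described here are the transcription factors Twist1, Twist2, Snai1, Snai2, Zeb1, Zeb2 and Prrx1 and the cadherins Cdh1, Cdh2 and Cdh11. They were chosen by name, as every probe set that the array annotation assigns to exactly one of these symbols. All 10 were measured, by 15 probe sets, among 12393 genes measured by 20380 probe sets with 1 named gene. The starved group was 3 arrays of mouse embryonic fibroblasts starved for 6 h, and the control group was 3 arrays of the same kind of cell kept in normal medium. Both groups are described as wild type, with no transgene or drug named. What the starvation medium lacked is not given in the labels. The sample titles call the arrays of each group biological replicates, but do not say whether these came from separate cultures or cell preparations. The p-values thus measure only the spread between these arrays, and how independent the replicates were is not known.

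Mesenchymal cells such as fibroblasts move singly and are held together by few epithelial junctions. Factors of the Snail, Zeb and Twist families bind short E-box motifs in DNA and are best known for repressing the epithelial cadherin gene Cdh1 when epithelial cells turn mesenchymal in embryos and tumours. Twist1, Twist2 and Prrx1 also help to form mesoderm, skull and limb. Cadherins are calcium-dependent adhesion proteins: Cdh1 (E-cadherin) joins epithelial cells, while Cdh2 (N-cadherin) and Cdh11 (OB-cadherin) are the usual cadherins of fibroblasts and bone-forming cells.

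Levels below are log2 array signals, and a difference is starved minus control on that scale. A gene with several probe sets is represented by the brightest. Each gene was tested in a limma fit of all 12393 genes, whose p-values were adjusted by Benjamini and Hochberg's method, and a gene is said to have risen or fallen where its adjusted p was below 0.05. Levels of different probe sets cannot be compared with each other, since each probe set binds with its own strength. In cultures measured in bulk, fewer cells that use a gene and less RNA of it per cell cannot be told apart.

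The arrays had medians between 6.77 and 6.81 in starved and between 6.73 and 6.74 in control cells. All 12 fibroblast markers were measured, and their mean level was 11.53 to 11.57 on starved and 11.28 to 11.37 on control arrays. Vimentin (Vim) averaged 14.13 ± 0.04 and 13.93 ± 0.01, Col1a1 12.02 ± 0.06 and 11.55 ± 0.10, and Col1a2 14.16 ± 0.02 and 14.03 ± 0.02 in starved and control cells (SD, n = 3 each). The surface marker Thy1 gave a dim signal of 4.60 ± 0.04 in starved and 4.99 ± 0.04 in control cells (SD, n = 3 each). The 12 epithelial markers had a mean level of 4.68 to 4.79 on starved and 4.89 to 4.90 on control arrays, and in limma 0 of them rose and 0 fell (0 higher and 1 lower at an unadjusted p below 0.05). The largest mean level of a list of other cell types (endothelial, macrophage and blood, neural, muscle) was 4.78 on starved and 4.79 on control arrays. Single markers reached group means of 6.81, 7.75, 7.08 and 6.36 in these lists, in that order. In limma 0 of 10 endothelial markers rose and 3 fell, and 1 of 12 macrophage and blood markers rose and 3 fell. Of 9 neural markers 1 rose and 0 fell, and of 10 muscle markers 1 rose and 1 fell. Of the 12 fibroblast markers 8 rose and 2 fell, beside 44.1% called among all genes. The 18S ribosomal RNA probe sets averaged 12.82 on starved replicate 1 and 13.45 and 13.65 on the other starved arrays, against 13.40 to 13.71 on control arrays. Leaving this array out changed no call among the 10 genes. The beta-actin probe set at the 3′ end exceeded that at the 5′ end by 0.13, 0.14 and 0.06 on starved arrays, against 0.01, 0.03 and 0.01 on control arrays, with no overlap. For Gapdh this difference was 0.02, 0.01 and −0.09 on starved arrays, against −0.02, 0.03 and 0.00 on control arrays. The part of these values in the results was not tested.

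Spike-in control RNAs, commonly added in equal amounts to every sample, lay higher on starved arrays. The poly-A spike-ins averaged 7.85 on starved and 7.42 on control arrays (difference 0.43, 95% CI 0.26 to 0.59), and the hybridization spike-ins 10.32 and 10.13 (difference 0.19, 95% CI 0.09 to 0.28). Centring each array on these controls subtracts that difference from every gene, so the median of all genes, −0.05 as deposited, moved by −0.19 with the hybridization and by −0.43 with the poly-A spike-ins. A rise or fall below is thus a change against the bulk of genes on the arrays, in the authors' scaling. The value with poly-A centring is given beside each of the 10 genes.

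Of the 10 genes 6 rose in starved cells (Twist1, Zeb1, Zeb2, Prrx1, Cdh1 and Cdh2), 2 fell (Twist2 and Snai1) and 2 did not pass (Snai2 and Cdh11). Among all genes 22.1% were called higher and 22% lower, 44.1% together. Starved and control arrays did not overlap for 9 of the 10 genes, against 54% of all genes. The median difference of the 10 genes was 0.37, beside −0.05 over all genes. With centring on the hybridization spike-ins 4 rose and 4 fell, and with the poly-A spike-ins 1 rose (Cdh1), 4 fell (Twist2, Snai1, Snai2 and Cdh11) and 5 did not pass. Over all genes these centrings moved the share of higher genes among the calls to 21.5% and 8.45%, against 50.1% as deposited and 41.9% with arrays centred on their medians.

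**Figure D1:**
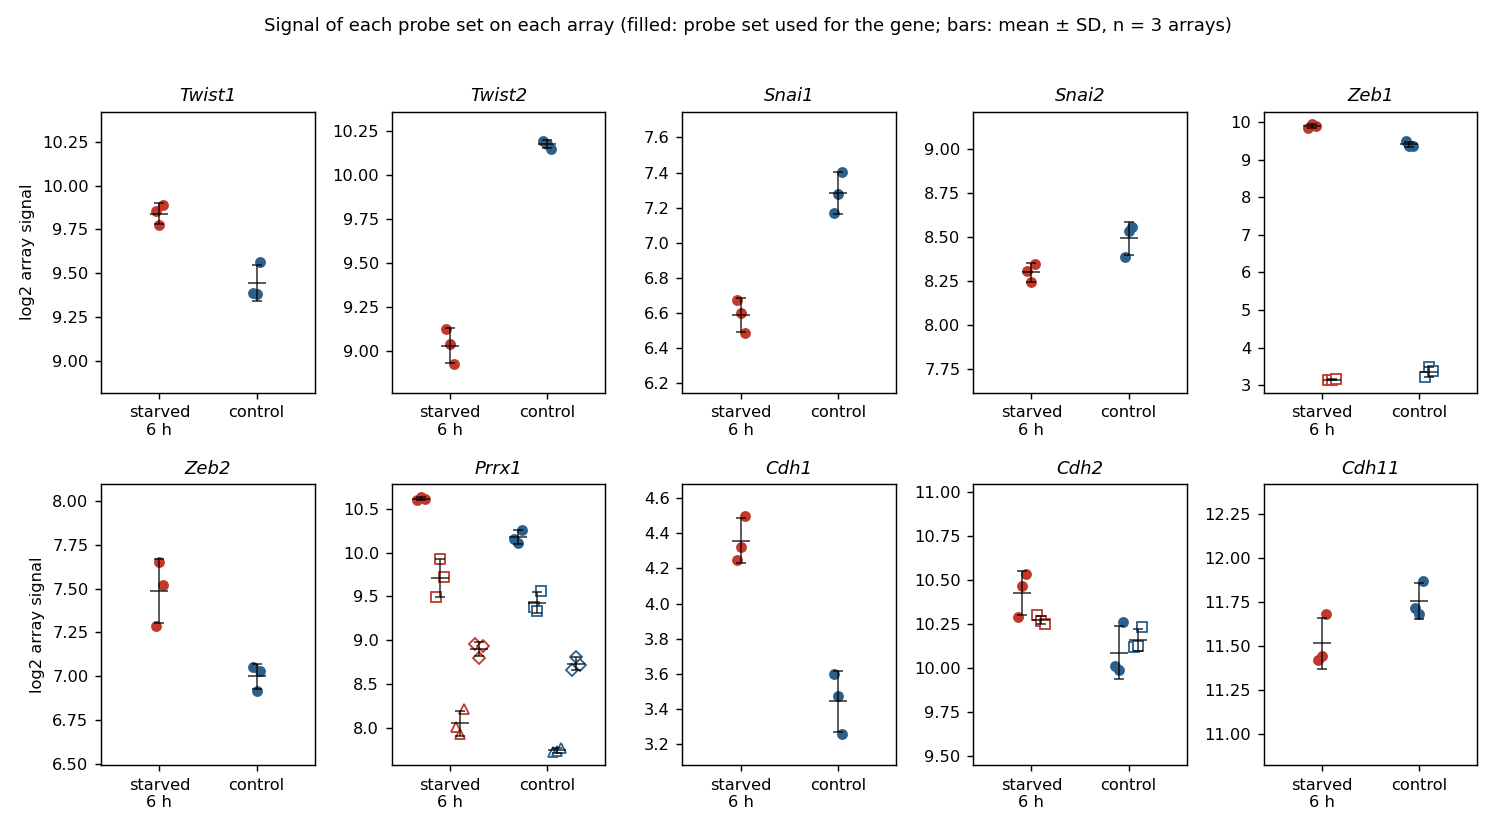
Log2 array signal (vertical axes, each with its own range) of the 10 genes on 3 starved arrays (left, red) and 3 control arrays (right, blue). Each point is 1 array and probe set, bars are mean ± SD, and filled points mark the probe set used for the gene; the Twist2 points lie near 9.03 in starved and 10.18 in control cells, while Cdh11 is the gene whose used probe set overlaps between groups.

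The 2 Twist genes moved in opposite directions. Twist1, a basic helix-loop-helix factor of mesoderm and neural crest, had signals of 9.85, 9.77 and 9.89 on starved arrays, against 9.39, 9.38 and 9.56 on control arrays. All starved arrays lay above all control arrays, and Twist1 rose 1.31-fold (log2 difference 0.39, SE 0.08, limma adjusted p = 0.00215). This difference was −0.032 with poly-A centring, where it did not pass, and it also missed the threshold with hybridization centring (0.21, adjusted p = 0.0644). Twist2, its close relative in dermis and bone precursors, had 9.12, 9.04 and 8.93 on starved arrays, against 10.20, 10.18 and 10.15 on control arrays. Twist2 fell to a level 2.21-fold lower in starved cells (−1.15, SE 0.07, limma adjusted p = 1.83e-06) and lay at −1.57 with poly-A centring. It had the largest change in size of the 10 genes, larger than that of 97.1% of all genes measured.

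The promoters of the Twist pair and of Snai1 are shown because the Twist genes went opposite ways and because Snai1 is both an E-box-binding repressor and one of the 2 genes that fell. RefSeq windows (GRCm38.p6) run from 250 bases before to 50 bases after the start, 5′ to 3′ on the gene's strand, and capitals mark the E-box CACCTG or its reverse complement CAGGTG, searched on both strands.
Twist1 (chr12:33957421-33957720, plus strand): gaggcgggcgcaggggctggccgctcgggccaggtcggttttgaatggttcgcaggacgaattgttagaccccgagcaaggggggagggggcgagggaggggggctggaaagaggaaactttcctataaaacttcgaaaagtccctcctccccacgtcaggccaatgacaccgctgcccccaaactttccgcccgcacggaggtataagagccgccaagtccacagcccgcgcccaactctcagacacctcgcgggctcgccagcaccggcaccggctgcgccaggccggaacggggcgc
Twist2 (chr1:91801211-91801510, plus strand): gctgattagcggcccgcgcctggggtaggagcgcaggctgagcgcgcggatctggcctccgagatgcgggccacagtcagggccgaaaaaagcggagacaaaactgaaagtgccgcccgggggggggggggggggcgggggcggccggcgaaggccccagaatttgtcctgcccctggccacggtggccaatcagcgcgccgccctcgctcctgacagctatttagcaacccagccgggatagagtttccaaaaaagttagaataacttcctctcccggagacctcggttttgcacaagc
Snai1 (chr2:167537945-167538244, plus strand): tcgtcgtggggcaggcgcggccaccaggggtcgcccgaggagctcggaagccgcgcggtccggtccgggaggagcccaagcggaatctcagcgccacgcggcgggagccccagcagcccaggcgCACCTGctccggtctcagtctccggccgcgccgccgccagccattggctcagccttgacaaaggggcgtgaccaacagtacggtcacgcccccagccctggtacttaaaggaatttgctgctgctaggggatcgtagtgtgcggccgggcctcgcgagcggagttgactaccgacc
The Snai1 window held 1 such E-box, whose first base lies at −126 from the start, and the Twist1 and Twist2 windows held 0. Of 32851 windows of this length in the RefSeq data 20.2% held the motif. G and C made up 66% of the Twist1, 64.7% of the Twist2 and 70% of the Snai1 window, against a median of 52.7% over all windows. A match of letters describes the window and shows no binding.

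The 2 Snail genes both lay lower in starved cells, and Snai1 passed the test. Snai1, a zinc finger repressor of Cdh1 with a short-lived protein, had 6.68, 6.60 and 6.49 on starved arrays, against 7.17, 7.28 and 7.41 on control arrays. The groups did not overlap, and Snai1 fell to a level 1.62-fold lower in starved cells (−0.70, SE 0.08, limma adjusted p = 0.000106), with −1.12 under poly-A centring. Snai2 (Slug), a repressor of neural crest and mesenchyme, had 8.31, 8.24 and 8.35 on starved arrays, against 8.38, 8.54 and 8.55 on control arrays. Although its groups did not overlap either, the difference of −0.19 (95% CI −0.36 to −0.03) did not pass (limma adjusted p = 0.0611). Its adjusted p lay between 4.23e-05 with poly-A centring and 0.186 with 1 array left out, in all settings tried except treat. Snai2 fell with array medians centred (−0.24, adjusted p = 0.0313), with hybridization centring (−0.38) and with poly-A centring (−0.62), and also without control replicate 1 (−0.25, adjusted p = 0.0444). It also fell with a further quantile normalization, with trend and robust settings and without the dimmest 40% of genes.

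With the brighter Zeb1 probe set, both Zeb genes rose by about the same amount. Zeb1, a zinc finger and homeodomain repressor that keeps epithelial genes off, had 9.84, 9.94 and 9.89 on starved arrays, against 9.49, 9.37 and 9.38 on control arrays with its brighter probe set. It rose 1.39-fold (0.48, SE 0.07, limma adjusted p = 0.000386), a difference that was 0.050 and did not pass with poly-A centring. The second Zeb1 probe set was dim, with 3.14, 3.14 and 3.16 on starved arrays, against 3.21, 3.48 and 3.37 on control arrays. It did not pass and leaned the other way (−0.20, SE 0.08, limma adjusted p = 0.084 over all probe sets), and the mean of both probe sets did not pass (0.14, adjusted p = 0.0981). Zeb2, the partner repressor that also binds Smad proteins, had 7.29, 7.65 and 7.52 on starved arrays, against 7.05, 6.92 and 7.03 on control arrays. The starved arrays were more spread than the control arrays but lay above all of them. Zeb2 rose 1.40-fold (0.49, SE 0.10, limma adjusted p = 0.00242), and this was 0.060 and did not pass with poly-A centring.

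Prrx1, a paired-type homeodomain factor of limb and craniofacial mesenchyme, was measured by 4 probe sets that all leaned upward. The brightest, 1425528_at, had 10.60, 10.63 and 10.62 on starved arrays, against 10.16, 10.11 and 10.26 on control arrays. The groups did not overlap, and Prrx1 rose 1.36-fold (0.44, SE 0.07, limma adjusted p = 0.000615), a difference of 0.014 that did not pass with poly-A centring. Probe set 1425527_at also rose (0.31, SE 0.09, limma adjusted p = 0.0187 over all probe sets), with 8.02, 7.93 and 8.21 on starved arrays, against 7.72, 7.74 and 7.77 on control arrays. The other two did not pass: 1425526_a_at differed by 0.28 (95% CI 0.02 to 0.54) and 1432129_a_at by 0.17 (95% CI −0.01 to 0.34), and both overlapped between groups.

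Among the cadherins, Cdh1 rose in a dim signal not shown to be above background in either group. Cdh2 rose on 1 of its 2 probe sets, and Cdh11 did not pass. Cdh1 had 4.25, 4.32 and 4.50 on starved arrays, against 3.60, 3.48 and 3.26 on control arrays. The groups did not overlap, and Cdh1 rose by 0.91 on the log2 scale (SE 0.10, limma adjusted p = 6.14e-05). The deposited values come with no detection calls, so neither the starved nor the control signal is shown to be above background, and no fold is given. It was the one gene of the 10 that also rose with poly-A centring (0.49, adjusted p = 0.000918). None of the 12 epithelial markers named above passed the test beside it. Epcam averaged 4.34 ± 0.36 in starved and 4.61 ± 0.18 in control cells (SD, n = 3 each), and the keratins Krt8 (−0.16) and Krt18 (−0.17) did not pass.

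Cdh2 had 10.29, 10.46 and 10.53 on starved arrays, against 10.01, 9.99 and 10.26 on control arrays with probe set 1418815_at. The lowest starved array was barely above the highest control array, and Cdh2 rose 1.27-fold (0.34, SE 0.10, limma adjusted p = 0.0160). The call was lost without control replicate 1 (adjusted p = 0.0567), control replicate 2 (0.0623), starved replicate 2 (0.0508) or starved replicate 3 (0.0590). With hybridization centring the difference was 0.15 (adjusted p = 0.170), and with poly-A centring −0.084. Probe set 1449244_at had 10.30, 10.27 and 10.25 on starved arrays, against 10.12, 10.12 and 10.23 on control arrays. It did not pass (0.11, 95% CI −0.04 to 0.27, limma adjusted p = 0.225 over all probe sets). Cdh11, a cadherin of mesenchyme and bone, had 11.42, 11.44 and 11.68 on starved arrays, against 11.72, 11.68 and 11.87 on control arrays. One starved array reached the control range, and the difference of −0.24 (95% CI −0.45 to −0.04) did not pass (limma adjusted p = 0.0569). Cdh11 fell without starved replicate 3 (−0.33, adjusted p = 0.0143), with array medians (−0.29, adjusted p = 0.0306), hybridization (−0.43, adjusted p = 0.00237) or poly-A spike-ins centred (−0.67), and with the replicate number as a block (adjusted p = 0.0301). It also fell with a further quantile normalization, with array weights, with trend and robust settings and without the dimmest 40% of genes. Its adjusted p lay between 4.69e-05 and 0.190 in all settings tried except treat.

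Taken one by one, 7 of the 15 probe sets were called higher, 2 lower and 6 did not pass, beside 20.4% higher and 20.5% lower (40.9% together) among all 20380 probe sets. Groups did not overlap for 12 of the 15, against 52.2% of all probe sets.

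**Figure D2:**
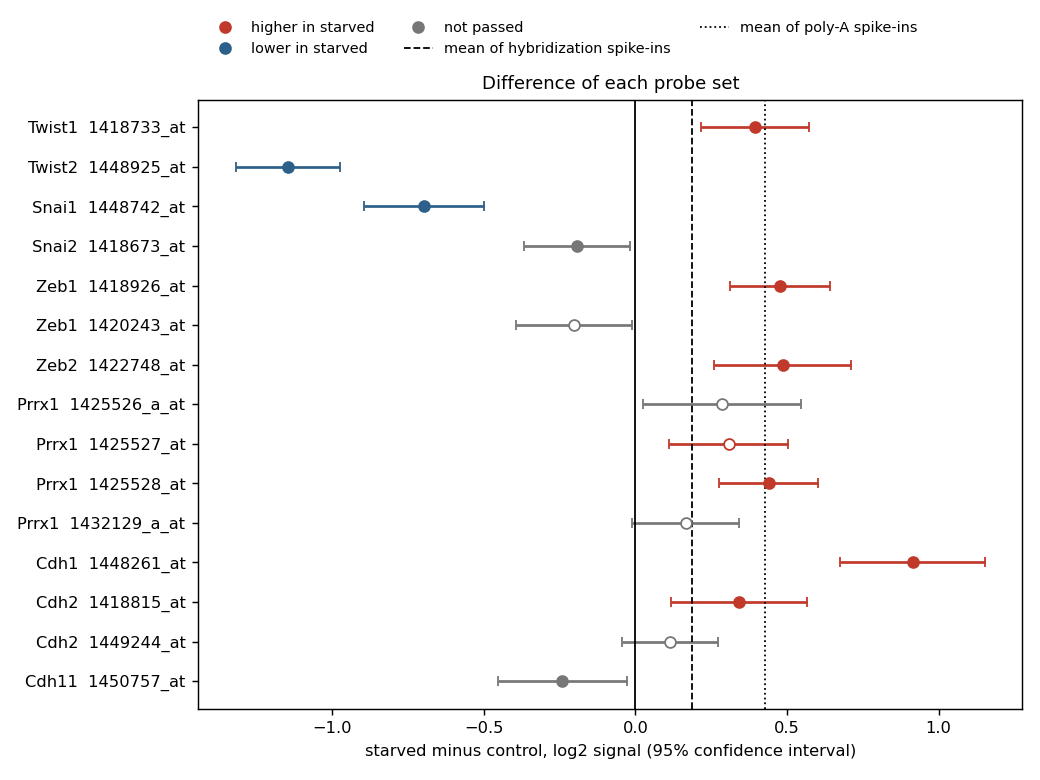
Difference of each of the 15 probe sets, starved minus control in log2 signal (horizontal axis), with 95% confidence intervals from limma; filled points mark the probe set used for the gene. Probe sets called higher are red (7), called lower blue (2) and others grey (6); the dashed and dotted lines at 0.19 and 0.43 are the differences of the hybridization and poly-A spike-ins, and of the probe sets only Cdh1 has an interval wholly to the right of the dotted line.

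A ratio between related genes on the same array is not moved by a shift shared by all probe sets of that array, such as the spike-in centrings, so ratios were set side by side for 5 pairs. Quantile normalization, which RMA includes, shifts bright and dim probe sets differently and can move them. The ratio itself has no unit of abundance, and only its change between groups is read. Each gene is taken from its brightest probe set, and the size of a change depends on that choice. Cdh2 differed by 0.34 with the probe set used and by 0.11 with its second, and Zeb1 by 0.48 and −0.20. The log2 ratio of Twist1 over Twist2 was 0.73, 0.73 and 0.96 on starved arrays, against −0.81, −0.80 and −0.59 on control arrays. It was 1.54 higher in starved cells, with no overlap between the groups. The ratio of Cdh11 over Cdh2 was 1.13, 0.98 and 1.15 on starved arrays, against 1.70, 1.69 and 1.61 on control arrays, a difference of −0.58. Snai1 over Snai2 differed by −0.50 and Cdh1 over Cdh2 by 0.57, again with no overlap, where the Cdh1 side has the limit on background named above. Each of these 4 gave p = 0.1 in an exact two-sided permutation test (adjusted p = 0.125 over the 5 pairs), which is the smallest p that 3 arrays against 3 allow, so the test could not reach 0.05. Zeb1 over Zeb2 differed by −0.01, with 2.56, 2.29 and 2.37 on starved arrays, against 2.44, 2.45 and 2.35 on control arrays (exact permutation p = 1).

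**Figure D3:**
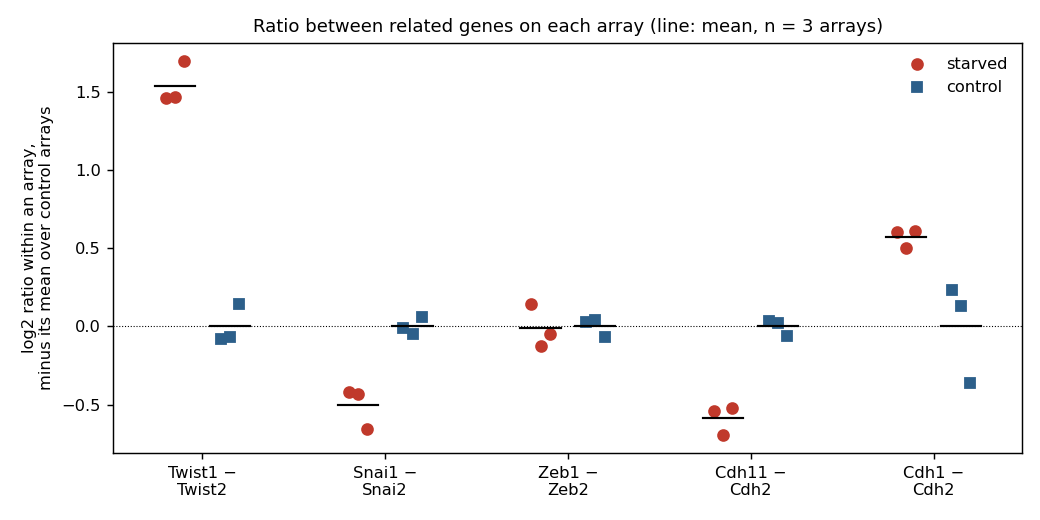
Log2 ratio between 2 related genes within each array, minus the mean of that ratio over control arrays (vertical axis), for 3 starved (red circles) and 3 control arrays (blue squares) of each pair, with lines at the means. The Twist1 over Twist2 ratio lies 1.54 above control, Cdh11 over Cdh2 0.58 below it (a difference of −0.58), and the Zeb1 over Zeb2 ratios of the groups overlap.

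Other genes of junctions and of the mesenchymal programme were counted in 7 lists, read beside 44.1% called among all genes. Some genes stand in more than 1 list, such as Ajuba and Cdh3. The epithelial markers and most fibroblast markers counted above are also in the epithelial and mesenchymal lists. These counts are thus not separate observations. Of 20 further cadherins 14 were measured, of which 2 rose, 2 fell and 10 did not pass (28.6% called, median −0.10). Cdh13, an unusual cadherin with a lipid anchor and no cytoplasmic part, averaged 10.06 ± 0.13 in starved and 8.62 ± 0.08 in control cells (SD, n = 3 each) and rose (1.44, SE 0.09, limma adjusted p = 1.06e-06). Cdh17, known from intestine, rose by 1.14. It averaged 6.47 ± 0.06 in starved and 5.33 ± 0.04 in control cells (SD, n = 3 each). Its control signal is not shown to be above background. Cdh16 (−0.29) and Cdh23 (−0.22) fell. Both falls were in dim signals. Cdh16 averaged 4.21 ± 0.12 in starved and 4.50 ± 0.10 in control cells, and Cdh23 3.90 ± 0.07 and 4.12 ± 0.09 (SD, n = 3 each). Neither is shown to be above background. With poly-A centring 2 of the 14 rose, Cdh13 (1.02) and Cdh17 (0.72), and 12 fell.

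Catenins tie cadherins to actin, and of 17 measured catenins and adherens junction partners (of 20 listed) 7 rose, 0 fell and 10 did not pass in limma (41.2% called, median 0.21; 9 higher and 0 lower at an unadjusted p below 0.05). The rises with the smallest adjusted p were Ctnnd2 (1.36), a catenin of the p120 family, Jup (1.15), the plakoglobin of adherens and desmosomal junctions, and Ajuba (0.53), a LIM protein at junctions that also partners Snail. Ctnnd2 averaged 5.80 ± 0.21 in starved and 4.43 ± 0.13 in control cells (SD, n = 3 each). Its dim control signal is not shown to be above background. Plekha7, a junction protein that binds p120 catenin and was named after its value was seen, rose by 0.92. It averaged 5.92 ± 0.20 in starved and 5.01 ± 0.24 in control cells (SD, n = 3 each). Its control signal is not shown to be above background either. With poly-A centring 3 of the 17 rose, Ctnnd2 (0.94), Jup (0.73) and Plekha7 (0.49), and 7 fell, while Ajuba did not pass (0.10). Of 38 epithelial genes 37 were measured, and 4 rose, 0 fell and 33 did not pass in limma (10.8% called, median −0.05; 4 higher and 1 lower at an unadjusted p below 0.05). The risen ones were the desmosomal plakophilin Pkp2 (0.98), the claudin Cldn1 (0.69), the tight junction scaffold Tjp1 (0.46) and the laminin chain Lamb3 (0.21), the last named after its value was seen. With poly-A centring 2 epithelial genes rose and 31 fell; Pkp2 (0.56) and Cldn1 (0.27) rose, Tjp1 (0.035) did not pass and Lamb3 lay at −0.21. The call of Lamb3, at 4.12 ± 0.08 in starved and 3.91 ± 0.01 in control cells (SD, n = 3 each), was also lost with array medians centred (adjusted p = 0.095).

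Of 32 mesenchymal genes 29 were measured, of which 17 rose, 4 fell and 8 did not pass (72.4% called, median 0.33), while with poly-A centring 6 rose and 13 fell. Tagln, an actin-binding protein of smooth muscle, rose by 1.98, and the matrix proteins Tnc and Postn by 1.44 and 1.41. The matrix-degrading protease Mmp3 fell by 1.64, the membrane protease Fap by 0.45, Thy1 by 0.40 and the growth factor receptor Pdgfrb by 0.28, the last named after its value was seen. Fap was dim like Thy1, at 4.44 ± 0.27 in starved and 4.90 ± 0.04 in control cells (SD, n = 3 each). Neither of these dim signals is shown to be above background. Of 14 partners and inhibitors of basic helix-loop-helix factors, all measured, 1 rose, 6 fell and 7 did not pass (50% called, median −0.13). The Id proteins, which tie up the E proteins that Twist factors pair with, included the largest falls: Id2 (−2.27), Id1 (−2.11) and Id3 (−1.07). The tendon factor Scx rose by 0.62, a call lost with poly-A centring (0.20), where 0 of the 14 rose and 13 fell.

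Of 29 co-repressors and turnover factors of Snail and Zeb proteins 25 were measured, of which 12 rose, 3 fell and 10 did not pass (60% called, median 0.22). The histone methyltransferase Ezh2 rose by 1.06, the phosphatase Ppm1a by 0.76 and the histone demethylase Kdm1a, a known partner of Snai1, by 0.65. The co-repressor Ctbp2, which binds Zeb proteins, fell by 0.63, the deacetylase Hdac1 by 0.41 and the deubiquitinase Usp27x by 0.37. Usp27x was dim, at 4.21 ± 0.26 in starved and 4.58 ± 0.10 in control cells (SD, n = 3 each), and is not shown to be above background. With poly-A centring 4 of the 25 rose, Ezh2, Ppm1a and Kdm1a among them, and 12 fell. Of 42 other mesenchymal and mesodermal transcription factors 36 were measured, of which 6 rose, 12 fell and 18 did not pass (50% called, median −0.18). Prrx2, the paralog of Prrx1, averaged 9.48 ± 0.14 in starved and 10.98 ± 0.04 in control cells (SD, n = 3 each) and fell by 1.50 (SE 0.08, limma adjusted p = 7.16e-07). The chromatin protein Hmga2 (−0.98) and the forkhead factor Foxc2 (−0.78) fell as well, while Tbx18 (0.44), Ets2 (0.33) and Foxf2 (0.28) rose, 3 calls that were lost with poly-A centring, where 0 of the 36 rose and 29 fell.

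**Figure D4:**
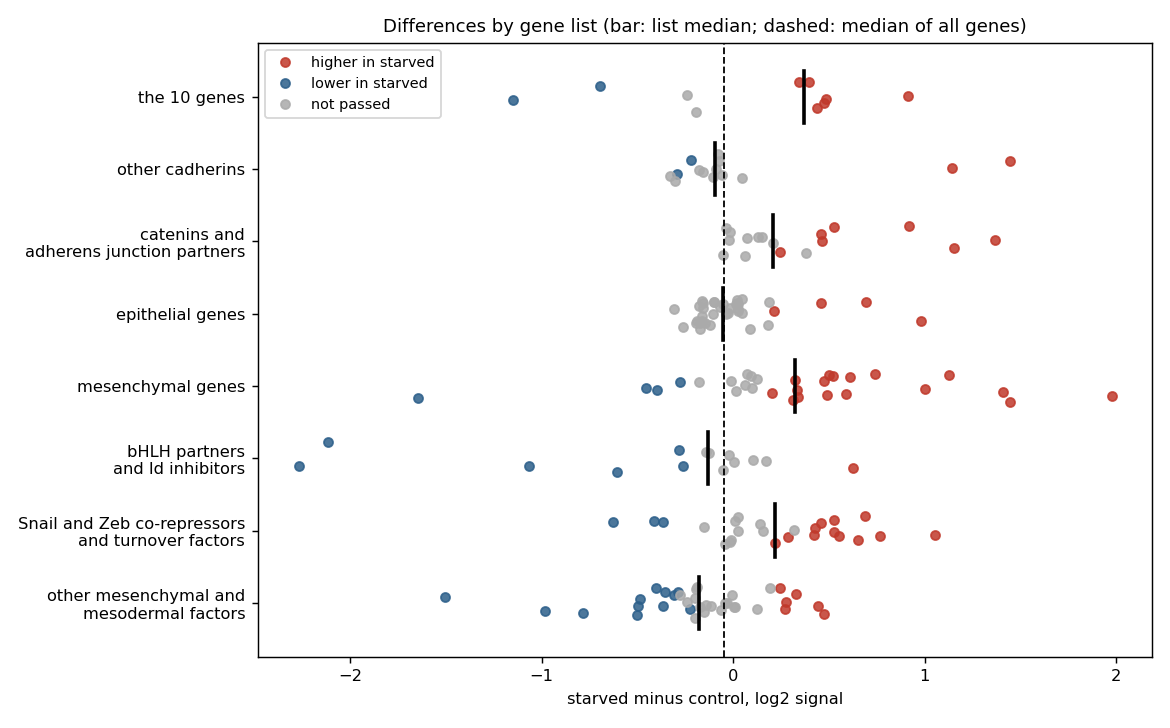
Difference of each measured gene, starved minus control in log2 signal (horizontal axis), for the 10 genes and for 7 lists of related genes, with called genes in red (higher) or blue (lower), others in grey, list medians as bars and the median of all genes (−0.05) as a dashed line. The medians run from −0.18 for other mesenchymal and mesodermal factors to 0.37 for the 10 genes, and Id2 and Id1 are the points at the far left (−2.27 and −2.11).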

How the data were processed

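RNA of 3 starved and 3 control samples was hybridised with 1 sample per short-oligonucleotide array. The authors deposited 1 log2 value per probe set and array, made with affy and RMA per the submitters' processing notes (no versions given). RMA matches the signal distributions of the arrays, so a change in total messenger RNA per cell is removed, and changes of dim genes are compressed. The number of arrays limits precision.

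Of 22690 probe sets, 64 controls, 691 with several genes and 1555 with none listed were left out. Symbols came from the platform annotation, and all 15 probe sets of the 10 genes had the same symbol in the RefSeq gene table. limma 3.58.1 (R 4.3.3; lmFit, eBayes) with no covariate and two-sided tests was fitted to all 6 arrays, grouped by title, for genes with no filter on dim signals and again for 20380 probe sets. The steps were tested on simulated data with few changed genes, independent noise and no shift between arrays. That setting differs from these data, so it does not bear on calls that depend on the scaling. RefSeq promoter windows were used for 5 of the 10 genes (8 windows, 1 with the motif). Alternatives covered the choice of probe set, scaling, variance model, threshold and arrays.

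The 10 genes, the lists and the alternatives were chosen with earlier results of these data known. Named genes are the 10, up to 3 risen and 3 fallen genes per list with the smallest adjusted p, and a few fixed markers. Same-numbered arrays did not deviate together (correlations −0.005, −0.022 and 0.002), so numbers were not taken to pair samples.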

Additional observations from a re-analysis of the deposited data

How the results depend on the processing

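Twist2, Snai1 and Cdh1 kept their direction and call under every alternative run, except that Cdh1 was not tested without the dimmest 40% of genes. The count of risen genes among the 10, 6 as reported, was 1 with poly-A centring, 1 where the log2 difference also had to reach 0.5 and 2 with treat against a 1.2-fold change. It was 5 to 6 with each array left out. The count of fallen genes, 2 as reported, was 4 without the dimmest 40% of genes, with a further quantile normalization, with array medians, poly-A or hybridization spike-ins centred, and with trend and robust settings. It was 2 to 3 with each array left out. Over all genes 5463 calls became 10181 with poly-A centring, 2273 where the log2 difference also had to reach 0.5, 2253 with treat and 4541 to 5317 with an array left out. Of the probe sets of the 10 genes 7 were higher and 2 lower: 1 and 7 with poly-A centring, 4 and 5 with hybridization centring, and 5 lower with medians centred. With an array left out, 5 to 8 were higher and 2 to 3 lower. Twist1 (−0.032) and Cdh2 (−0.084) turned negative with poly-A centring. The Zeb1 over Zeb2 ratio turned positive with quantile normalization (0.0043) and with some arrays left out (−0.086 to 0.048). These values rest on the brighter Zeb1 probe set (0.48, beside 0.49 for Zeb2), while the dim Zeb1 probe set leaned the other way (−0.20). The other ratios kept their direction, and with an array left out Twist1 over Twist2 ran from 1.46 to 1.61, Snai1 over Snai2 from −0.54 to −0.43, Cdh11 over Cdh2 from −0.62 to −0.53 and Cdh1 over Cdh2 from 0.39 to 0.69. With the replicate number as a block 6 of the 10 genes rose and 3 fell, since Cdh11 passed (−0.24, adjusted p = 0.0301), and 5274 of all genes were called. It changed no other call among the 10. By construction each centring shifts all genes of an array alike, by an amount that differs between arrays, also within a group. It thus changes the differences, the spread within groups and the adjusted p-values. The cause of the other moves was not tested.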
